A study of Mus musculus with 11 samples.

Results

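The 9 immunopurified libraries of this mouse experiment fell into 2 kinds. The 3 libraries that carry replicate number 1 (a saline, a cocaine and a yoked library) were set against the 6 libraries that carry number 2 or 3. They are 9 of the 11 libraries of the series. The split was chosen by values measured in these same libraries, namely the levels of Colgalt2, Fezf2, Malat1 and Slc1a3, so every difference between the 2 kinds is given as a description with no test.

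Every group came from adult mice of the TRAP line DU9 that had taken part in short access sessions with an intravenous line: saline self-administration, cocaine self-administration or yoked control. The transgene shared by all of them puts EGFP on ribosomal protein Rpl10a in cells that use the Glt25d2 promoter region. Glt25d2 is the former name of Colgalt2. Each of the 3 treatments has 3 immunopurified (IP) libraries. A saline input library holds total RNA, and a cocaine unbound library holds the RNA that the beads did not retain. Sample labels name cerebral cortex as the tissue, while the extraction protocol speaks of whole striatum. The sources used here do not say what the yoked mice received, how many animals stand behind a library, or their sex.

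Translating ribosome affinity purification recovers tagged polysomes with an antibody against EGFP, so messenger RNA under translation in the tagged cells is retained. RNA that stays in the nucleus, and RNA of cells without the tag, should remain in the unbound fraction as far as the wash removes it. Layer 5 pyramidal tract neurons are the large projection neurons of the cortex, which send axons to the brainstem and spinal cord.

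Within each treatment the replicate number also fixed the index, the short sequence that marks a library on the sequencer. The 3 indexes are shown in full because the split follows them exactly. They were read from the library names, and every letter is part of the index.
number 1: CGATGT
number 2: CAGATC
number 3: GTGAAA
The saline libraries ran on lane 6, the cocaine libraries on lane 2 and the yoked libraries on lane 3. Number and index therefore cannot be told apart, nor can number and any handling shared by libraries of a number. The input carried the index of number 3 on lane 7, and the unbound library carried ATGTCA on lane 1.

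Libraries numbered 1 held 38343099 to 53862653 gene counts, and those numbered 2 or 3 held 33633470 to 38846452. The input held 39901884 and the unbound library 20926712. Reads outside annotated genes made up 6.28% to 7.29% of all entries in libraries numbered 1 and 10.3% to 15.5% in the other 6, with the input at 13.3% and the unbound library at 13.9%. Genes with at least 1 count numbered 18695 to 18917 in libraries numbered 1 and 19639 to 20383 in the other 6, although saline and cocaine replicate 1 were deeper than all 6 and yoked replicate 1 was within their range. Reads that aligned to several places, which are left out of gene counts, were 38.4% to 47.0% in number 1 and 35.6% to 39.6% in the others. In the input they were 37.3% and in the unbound library 28.3%. Reads over several genes were 7.34% in the unbound library, 1.69% in the input and 1.56% to 1.91% in the IP libraries. The share of reads outside genes and the number of genes detected separate the 2 kinds, while depth and the share aligned to several places overlap. Their part in the differences below was not tested.

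Levels are given in CPM, a gene's count per 1000000 gene counts of its library, after scaling all 11 libraries with TMM. The log2 difference is the value in libraries numbered 1 minus that in numbers 2 and 3, fitted in edgeR over the 9 IP libraries with treatment as a term, and ± marks its standard error (SE). A gene is called set apart where this difference was at least 1 in size, a 2-fold difference, and all 3 libraries numbered 1 lay beyond all 6 others. Of 16417 genes tested, 448 (2.73%) were set apart higher in libraries numbered 1 and 2065 (12.6%) lower. These percentages are the background against which the gene lists below are read.

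The 2 directions differed in reach as well as in number. Genes set apart higher had a median log2 difference of 1.14, and those set apart lower had −1.70. At 4-fold or more, 18 were higher and 816 lower. The median of all genes was 0.01, with quartiles of −0.61 and 0.44. For 71 of the genes set apart lower, the 3 libraries numbered 1 had no count, and the median of the rest was −1.65. The number set apart higher changed when a library numbered 1 was left out, which also leaves fewer libraries that must clear the others. It fell to 244 without cocaine replicate 1, and rose to 766 without saline replicate 1 and 846 without yoked replicate 1. Of genes with a standard symbol and 30 CPM or more in 1 of the kinds, Psmg1 (1.0005) and Sfxn5 (−1.0005) lay just inside the 2-fold line. Galnt16 (0.9945) and Mib1 (−0.9997) lay just outside.

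Colgalt2, the driver gene of the tag, encodes a collagen galactosyltransferase (chromosome 1, 152399830 to 152510695, plus strand; coordinates are from GENCODE M21 on GRCm38). It stood at 136, 138 and 148 CPM in the saline, cocaine and yoked libraries numbered 1, and at 76.5 to 104.5 CPM in the other 6. The difference was 0.73 ± 0.10, short of 2-fold, and the 2 kinds did not overlap. Of the 16417 genes tested, 3670 lay above and 3953 below without overlap. Fezf2, the transcription factor that specifies subcortical projection neurons (chromosome 14, 12342094 to 12348189), stood at 146, 155 and 128 CPM in number 1. In the other 6 it had a lowest value of 54.7, a median of 58.8 and a highest of 82.4 CPM, the last in saline replicate 3. Its difference was 1.24 ± 0.11. The input, at 81.5 CPM for Colgalt2 and 61.4 CPM for Fezf2, lay among the 6 libraries and below all 3 of number 1.

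**Figure D1:**
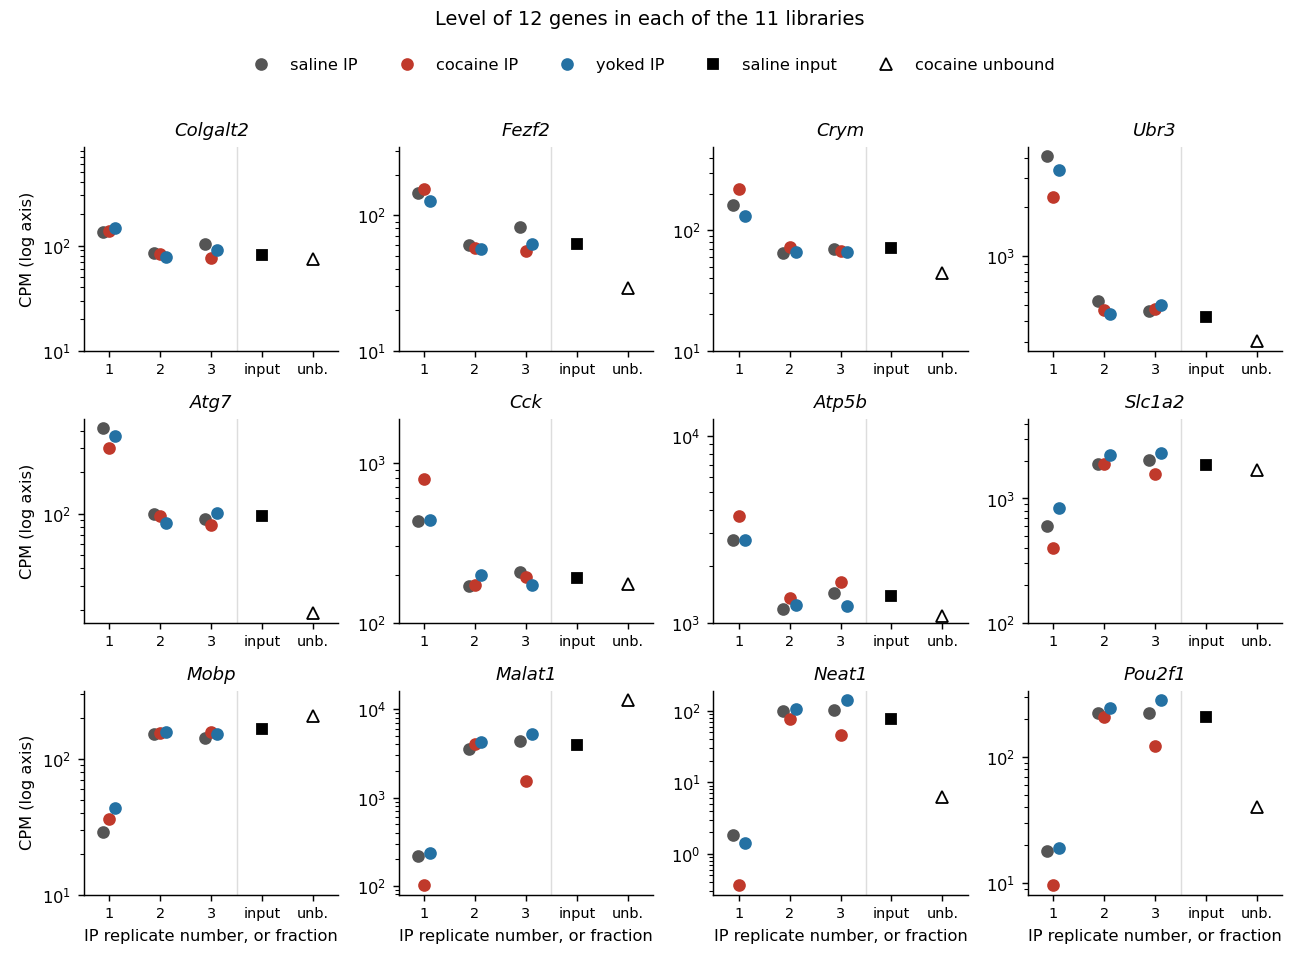
Level of 12 genes in each library, in CPM on a log axis. Points are single IP libraries by replicate number, coloured by treatment, with the input as a square and the unbound library as a triangle. For all 12 genes the 3 libraries numbered 1 lie outside the range of the 6 others, while the input lies close to the 6. Of all 16417 genes tested, 3670 lie above and 3953 below the 6 others in this way. Neat1 is at 0.36 to 1.83 CPM in number 1 and at 46.3 to 140 CPM in the others.

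Of the 12 other layer 5 markers, 10 lay above 0 and 4 were set apart higher and 0 lower, with a median of 0.73. Npr3 and Slco2a1 lay below 0. All 14 markers of the list passed the filter on low counts. With Colgalt2 and Fezf2, which chose the split, the list had 5 of 14 set apart higher and a median of 0.78. Crym, a thyroid hormone binding protein, was at 162, 222 and 132 CPM in the saline, cocaine and yoked libraries numbered 1 and at 64.6 to 73.4 CPM in the others, a difference of 1.34 ± 0.11. Ldb2, a cofactor of LIM domain transcription factors, was the most abundant marker and differed by 0.94 ± 0.09. Slco2a1, a prostaglandin transporter at 1.41 CPM or less in every library, was at −0.45 ± 0.37. The summed level of the 12 was 1107 to 1336 CPM in number 1, 633 to 791 CPM in the other 6 and 662 CPM in the input.

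Markers of most other cells were lower in libraries numbered 1. In these libraries, fewer cells of a type, less RNA per cell and less untagged RNA left after the wash cannot be told apart. Of 12 astrocyte markers other than Slc1a3, 7 were set apart lower and 0 higher, with a median of −1.02, and their summed level was 1814 to 2458 CPM in number 1 against 3888 to 4562 CPM in the other 6. Slc1a3, the glutamate and aspartate transporter that helped choose the split, stood at 26.7, 41.7 and 49.4 CPM in the saline, cocaine and yoked libraries numbered 1 and at 64.9 to 108 CPM elsewhere. Slc1a2, the main glutamate transporter of astrocytes, stood at 605, 397 and 831 CPM in number 1 and at 1581 to 2312 CPM in the other 6, a difference of −1.73 ± 0.13. Aldoc, an aldolase used as an astrocyte marker, did not follow, at 0.01 ± 0.11.

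Myelin genes were lower by a like amount. Of 12 oligodendrocyte markers, 6 were set apart lower and 0 higher, all 12 lay below 0, and the median was −0.96. Mobp, a protein of central myelin, stood at 29, 35.9 and 43.8 CPM in number 1 and at 144 to 158 CPM in the other 6, a difference of −2.07 ± 0.11. Oligodendrocyte precursor markers had 5 of 8 set apart lower (median −1.32), among them Vcan, a matrix proteoglycan, at −1.51 ± 0.19, and Olig1, a lineage transcription factor, at −1.37 ± 0.13. Cspg4, which mural cells also express, was at 0.58 ± 0.23. Microglia markers had 4 of 12 set apart lower (median −1.04), with the fractalkine receptor Cx3cr1 at −2.10 ± 0.21.

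Vascular markers split between cell types. Endothelial markers were higher in number 1, with 4 of 10 set apart higher, 0 lower and a median of 1.05, although their summed level was low, at 31.3 to 39.9 CPM against 10.3 to 23.6 CPM. The median was 0.66 against number 2 alone and 1.31 against number 3 alone. Ly6c1, a surface protein of brain endothelium, stood at 4.86, 4.61 and 4.74 CPM in number 1 and at 0.61 to 2.65 CPM in the other 6. Itm2a differed by 1.09 ± 0.17, and Cdh5, the cadherin of endothelial junctions, by −0.01 ± 0.33. Mural cell markers were lower, with 3 of 7 set apart lower (median −1.05), among them Rgs5, a regulator of G protein signalling in pericytes, at −1.34 ± 0.17. Blood cell genes had 1 of 4 set apart lower (median −1.34). Choroid plexus markers had 4 of 8 members tested, 1 of them set apart lower. Ttr, the transthyretin of that tissue, was at 21.1 CPM in saline replicate 2 and at no more than 1.34 CPM in the other 8 IP libraries.

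Lists of other neurons had medians nearer to 0 than the glial lists. Inhibitory interneuron markers had 6 of 14 set apart lower (median −0.67). Lhx6, a transcription factor of interneurons from the medial ganglionic eminence, differed by −1.70 ± 0.14, Gad2, a GABA synthesis enzyme, by −0.65 ± 0.13, and Reln, the secreted protein reelin, by 0.72 ± 0.11. Layer 6 markers had 2 of 10 set apart lower (median −0.35), led by Foxp2 at −1.40 ± 0.13. Layer 2 to 4 markers had 2 of 11 set apart lower and 1 higher (median −0.42). Within this list Cux1, an upper layer transcription factor, was at −1.57 ± 0.12, and Lamp5, a membrane protein of some cortical neurons, at 1.12 ± 0.09. Striatal projection neuron markers had 3 of 13 set apart lower (median −0.46, and −0.29 without saline replicate 1), with Rgs9, a regulator of dopamine signalling, at −2.24 ± 0.18, and the enkephalin gene Penk at 0.47 ± 0.10. All 13 striatal and all 8 thalamic markers passed the filter. Their summed levels in the input were 943 and 391 CPM, against 805 CPM for layer 5. The thalamic list had 2 of 8 set apart lower and 1 higher, with 4 on each side of 0. Its median of −0.05 turned to 0.03, 0.08 and 0.06 without saline replicate 1, saline replicate 2 and cocaine replicate 1.

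**Figure D2:**
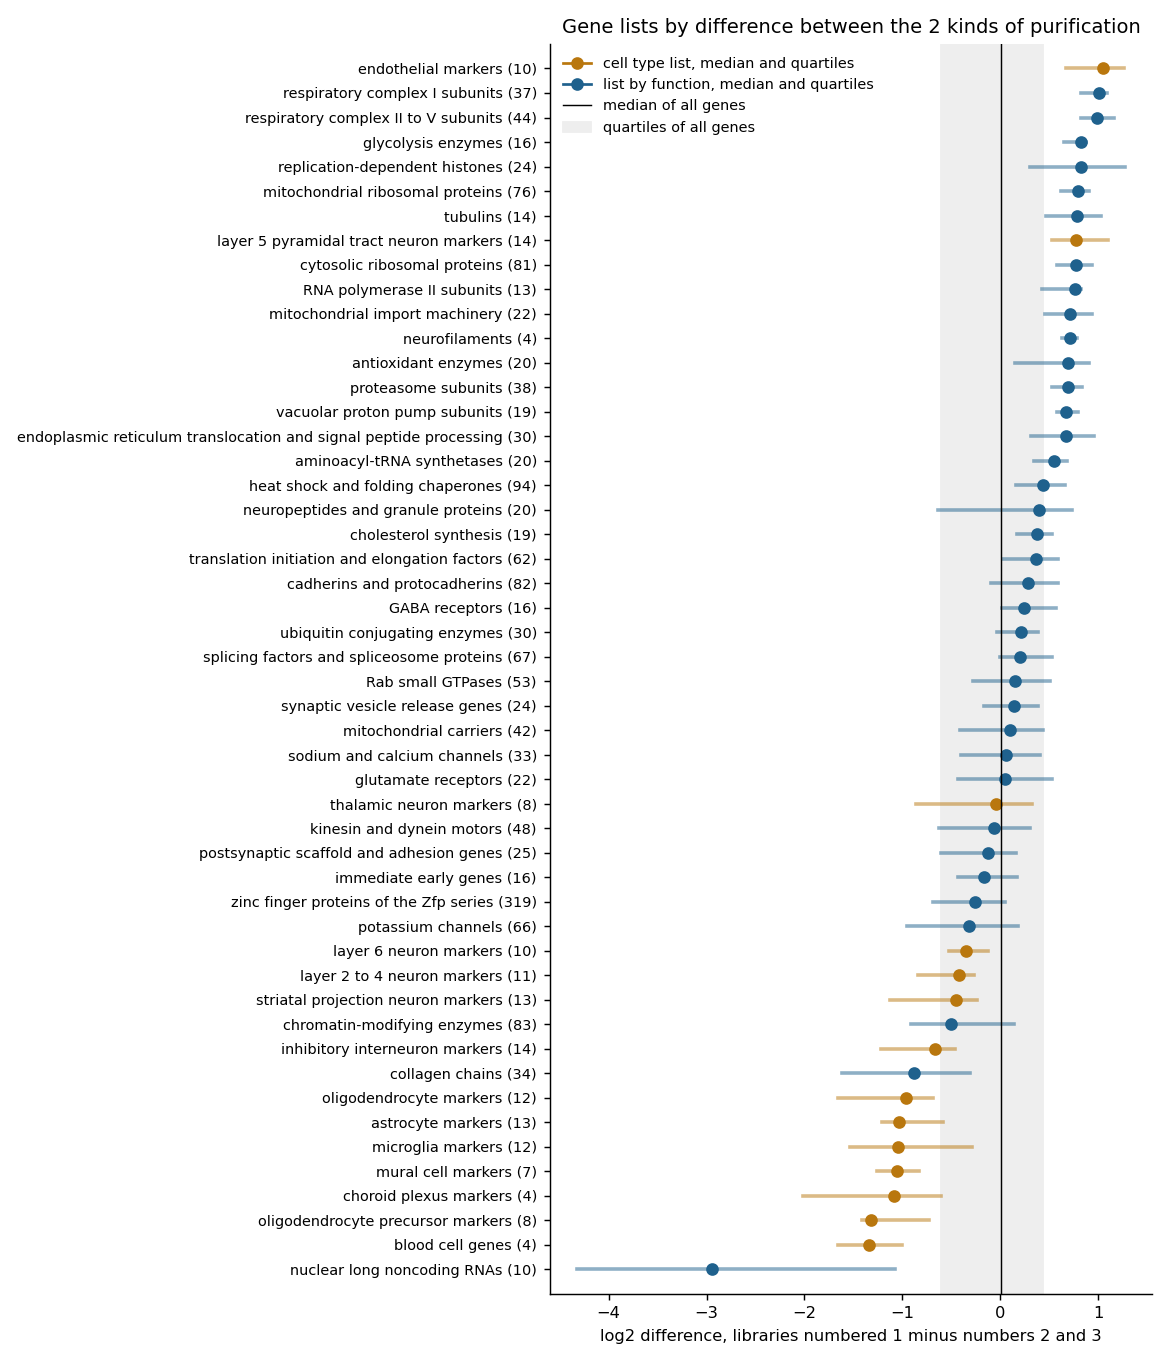
Median log2 difference of each of the 50 gene lists with its quartiles, libraries numbered 1 minus numbers 2 and 3, with the number of members tested in brackets. Cell type lists are in orange, lists by function in blue, and the line and grey band give the median and quartiles of all 16417 genes. The lists run from nuclear long noncoding RNAs at −2.95 to endothelial markers at 1.05.

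RNAs that stay in the nucleus had the lowest list median of the 50. Of 10 nuclear long noncoding RNAs, all 10 lay below 0, 7 were set apart lower and 0 higher, and the median was −2.95. Without Malat1, which chose the split, 6 of 9 were set apart lower and the median was −2.01. Malat1, an abundant RNA of nuclear speckles (chromosome 19, 5795690 to 5802672, minus strand), stood at 214, 100.5 and 232 CPM in the saline, cocaine and yoked libraries numbered 1. In the other 6 it ran from 1549 CPM in cocaine replicate 3 through a median of 4174 to 5315 CPM. Its difference was −4.43 ± 0.29. The input held 3967 CPM and the unbound library 12687 CPM.

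Neat1, the RNA on which paraspeckles are built, lies next to Malat1 (chromosome 19, 5824708 to 5845478, minus strand). It stood at 1.83, 0.36 and 1.42 CPM in number 1 and at 46.3 to 140 CPM in the other 6, a difference of −6.30 ± 0.27 or 79.0-fold. Unlike Malat1, it was also low in the unbound library, at 6.31 CPM against 78.0 CPM in the input. Kcnq1ot1, the antisense RNA of an imprinted domain on chromosome 7, stood at 1.62, 1.66 and 2.39 CPM in number 1 and at 22.1 to 78.0 CPM in the others. Strand use in counting is not given, so reads of Kcnq1ot1 and of the gene opposite cannot be told apart. Ipw, of the imprinted Prader-Willi region and not in the list, differed by −4.56 ± 0.28 and Meg3, of the imprinted region on chromosome 12, by −3.88 ± 0.16. Miat, a further nuclear RNA, stood at 8.84, 5.41 and 8.29 CPM in number 1 and at 74.0 to 194 CPM in the other 6. Cocaine replicate 3 was the lowest of the 6 for all of these RNAs, and still lay above every library numbered 1.

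Entries outside the protein-coding class were lower more often. Of 14218 protein-coding genes tested, 412 were set apart higher and 1320 (9.28%) lower. Of 684 genes in the long noncoding classes of GENCODE, 14 were higher and 149 (21.8%) lower. A further 1396 entries had no match in GENCODE M21 by symbol or synonym, and 574 of them (41.1%) were set apart lower. Most of these, 1059, carry names made of AK and digits, a form used for complementary DNA clones, and 435 of them were set apart lower.

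Genes with a standard symbol and 30 CPM or more in 1 of the kinds were ranked by their difference. The highest of them in number 1 were not layer 5 markers. Over all genes set apart higher, without these limits, the largest difference was 3.57. Ubr3, an E3 ubiquitin ligase (chromosome 2, 69897246 to 70024013, plus strand), stood at 4069, 2304 and 3365 CPM in the saline, cocaine and yoked libraries numbered 1. In the other 6 it lay between 444 and 531 CPM, and the input was at 423 CPM. The difference was 2.75 ± 0.12, or 6.73-fold. Atg7, the activating enzyme of autophagosome formation (chromosome 6, 114643097 to 114860614), stood at 419, 303 and 366 CPM in number 1, and at 83.4 to 101 CPM in the other 6. The input was at 96.2 CPM and the unbound library at 18.8 CPM. Yeats2, a histone reader of the ATAC acetyltransferase complex, stood at 176, 100.1 and 136 CPM in number 1 and at 19.8 to 48.1 CPM in the other 6. In each of these 3 genes, cocaine replicate 1 was the lowest library numbered 1.

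Neuropeptide genes were also among the 10 highest. Cck, the peptide cholecystokinin, stood at 430, 786 and 436 CPM in number 1 and at 169 to 208 CPM in the other 6, a difference of 1.55 ± 0.14. Adcyap1, the peptide PACAP, stood at 49.0, 53.1 and 39.3 CPM in number 1 and at 13.5 to 17.8 CPM in the others. The list of neuropeptide and granule protein genes as a whole had 3 of 20 set apart higher and 2 lower (median 0.40). Crh, corticotropin releasing hormone, was at −1.36 ± 0.35, and Chgb, the granule protein chromogranin B, was at 0.39 ± 0.12. The remaining genes of the 10 highest were Uqcr10, Rpl41, Rwdd2a, Pigyl and Bola2, at 1.42 to 1.37. Of these, Uqcr10, Rpl41, Pigyl and Bola2 differed by 2.26 to 2.41 in cocaine. In saline and yoked they differed by 0.67 to 0.96, short of 2-fold.

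Genes of the mitochondrial respiratory chain were higher in number 1. Of 37 subunits of complex I, 20 were set apart higher and 0 lower, with a median of 1.01. Of 44 subunits of complexes II to V, 21 were higher and 0 lower, with a median of 0.99. Without cocaine replicate 1 these medians were 0.69 and 0.74. Ndufa4, a small subunit counted in the first list by its symbol, stood at 458, 592 and 391 CPM in number 1 and at 179 to 256 CPM in the others. Atp5b, the catalytic beta subunit of ATP synthase, stood at 2762, 3734 and 2757 CPM and at 1184 to 1641 CPM. Uqcr10, a subunit of complex III, stood at 196, 538 and 174 CPM and at 85.3 to 125 CPM. The subunits that ran the other way, Ndufa4l2 (−0.39 ± 0.62) and Cox6b2 (−1.22 ± 0.55), were at 0.76 CPM or less in the IP libraries and 1.31 CPM or less in the other 2.

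Other mitochondrial genes were less uniform. Import machinery had 5 of 22 set apart higher (median 0.71, and 0.47 without cocaine replicate 1), with Timm13, a chaperone of the intermembrane space, at 47.1, 118 and 37.7 CPM in number 1 and 25.1 to 30.6 CPM in the others. Tomm20, the most abundant of the list and a receptor of the outer membrane, was at −0.57 ± 0.11. Carriers of the inner membrane had 1 of 42 higher and 3 lower (median 0.10), from Slc25a14 at 1.10 ± 0.09 to the iron importer Slc25a37 at −1.45 ± 0.14. Mitochondrial ribosomal proteins had 8 of 76 set apart higher and 0 lower, and all 76 lay above 0. Their median was 0.79, and 0.55 without cocaine replicate 1. Antioxidant enzymes had 3 of 20 higher (median 0.70), among them Prdx4 at 1.27 ± 0.16. Superoxide dismutase Sod1 was at 0.87 ± 0.12. Glycolysis enzymes had 2 of 16 higher and all 16 above 0 (median 0.83), among them Ldha, a lactate dehydrogenase subunit, at 1.18 ± 0.11.

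Lists of protein synthesis and breakdown had medians above 0 and smaller shares set apart than the respiratory chain. Cytosolic ribosomal proteins had 16 of 81 set apart higher and 0 lower (median 0.77, and 0.52 without cocaine replicate 1). Rpl41 stood at 53.8, 131 and 43.5 CPM in number 1 and at 23.0 to 34.0 CPM in the others, and Rps15a ran the other way at −0.66 ± 0.11. Ribosomal protein genes have many processed copies in the genome, and reads that fit several places were not counted, so these levels are uncertain. Proteasome subunits had 1 of 38 set apart higher, all 38 lay above 0, and the median was 0.69, although the share set apart was no larger than that of all genes. Aminoacyl-tRNA synthetases had 0 of 20 set apart (median 0.55). Translation factors had 1 of 62 set apart in each direction (median 0.37). In that list Eif6, which keeps ribosomal subunits apart, was at 1.07 ± 0.13. Eif4ebp2, a repressor of cap-dependent initiation, was at −2.05 ± 0.15. Chaperones had 3 of 94 in each direction (median 0.44), and Hsp90ab1, a cytosolic heat shock protein, was at 0.85 ± 0.10.

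Secretory and cytoskeletal lists were mixed. Endoplasmic reticulum translocation and signal peptide processing had 6 of 30 set apart higher and 0 lower (median 0.67), led by Spcs1, a signal peptidase subunit, at 1.35 ± 0.12, whereas Ssr1 of the translocon was at −0.88 ± 0.11. The vacuolar proton pump had 2 of 19 higher (median 0.67). Tubulins had 5 of 14 higher and 0 lower (median 0.79). Tuba1a stood at 2163, 2732 and 1649 CPM in number 1 and at 924 to 1348 CPM in the others. Neurofilaments, the intermediate filaments of large axons, had 0 of 4 set apart and a median of 0.71, with the heavy chain Nefh at 0.96 ± 0.10. Kinesin and dynein motors had 0 of 48 higher and 8 lower (median −0.06). Kif5c, a kinesin of axonal transport, was at −0.82 ± 0.11 and the dynein light chain Dynll1 at 0.86 ± 0.11. Ubiquitin conjugating enzymes had 0 of 30 set apart (median 0.21). Rab GTPases had 0 of 53 higher and 2 lower (median 0.15), and cholesterol synthesis had 0 of 19 in either direction (median 0.38).

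Genes of the synapse showed small medians and large exceptions. Vesicle release genes had 1 of 24 set apart, lower (median 0.15). Cplx2, a complexin that acts in vesicle fusion, stood at 662, 544 and 783 CPM in number 1 and at 1837 to 2201 CPM in the other 6. Syp, a vesicle membrane protein, was at 0.78 ± 0.09. Postsynaptic scaffold genes had 2 of 25 lower (median −0.13), with Homer2 at −1.68 ± 0.13. Glutamate receptors had 2 of 22 lower (median 0.04), from Grin1, the obligatory NMDA receptor subunit, at 0.97 ± 0.10 to Grin2c at −1.45 ± 0.23. GABA receptors had 1 of 16 higher (median 0.24), the delta subunit Gabrd at 1.29 ± 0.12. Potassium channels had 0 of 66 higher and 14 lower (median −0.32). Kcna2, a channel of the axon, stood at 422, 254 and 468 CPM in number 1 and at 637 to 1089 CPM in the others. Sodium and calcium channels had 2 of 33 lower (median 0.06). Cadherins and protocadherins had 6 of 82 higher and 2 lower (median 0.29), and collagen chains 1 of 34 higher and 4 lower (median −0.88, and −0.56 without cocaine replicate 1).

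Chromatin-modifying enzymes had 0 of 83 set apart higher and 17 lower (median −0.50). The pattern that defined the list also took in Dnmt3aos, an antisense RNA with no count in the libraries numbered 1 and at most 0.59 CPM in the others. Smarca2, a remodelling ATPase and the most abundant member, was at −0.31 ± 0.12, and the deacetylase Hdac2 at 0.74 ± 0.09. Zinc finger proteins of the Zfp series had 0 of 319 higher and 41 lower (median −0.25), a share of 12.9%, near the 12.6% of all genes. Zfp871, the most abundant of them, stood at 330, 193 and 334 CPM in number 1 and at 753 to 1636 CPM in the others.

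Some transcription factor genes were among the 10 lowest. Pou2f1, the octamer binding factor Oct-1, stood at 18.2, 9.64 and 19.2 CPM in number 1 and from 122.98 to 281 CPM in the other 6, a difference of −3.80 ± 0.17. Zbtb37, a zinc finger protein with a BTB domain, differed by −3.96 ± 0.20 and Zfp704 by −3.13 ± 0.17. Ahnak, which encodes a very large scaffold protein, differed by −3.28 ± 0.25. Other genes of the nucleus did not share this direction. Replication-dependent histones had 7 of 24 tested set apart higher and 0 lower (median 0.82, and 0.51 without cocaine replicate 1), but 38 of the 62 in the files did not pass the filter. RNA polymerase II subunits had 0 of 13 set apart and all above 0 (median 0.76, and 0.48 without cocaine replicate 1), and splicing factors had 2 of 67 higher and 0 lower (median 0.21).

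Transcript length separated the 2 directions. Among protein-coding genes, the longest-coding transcript in GENCODE had a median length of 1390.5 nucleotides for genes set apart higher, 4563 for those set apart lower and 3056 for all tested. Across 14218 genes, the Spearman correlation of the difference with transcript length was −0.44. It was −0.35 with 3′ UTR length, −0.28 with coding length, −0.30 with genomic span and 0.11 with GC content. Genes are not independent replicates, and these features are related to each other. In the shortest of 10 equal bins of transcript length, 13.2% of genes were set apart higher and 3.38% lower. In the longest bin these shares were 0.56% and 25.2%.

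**Figure D3:**
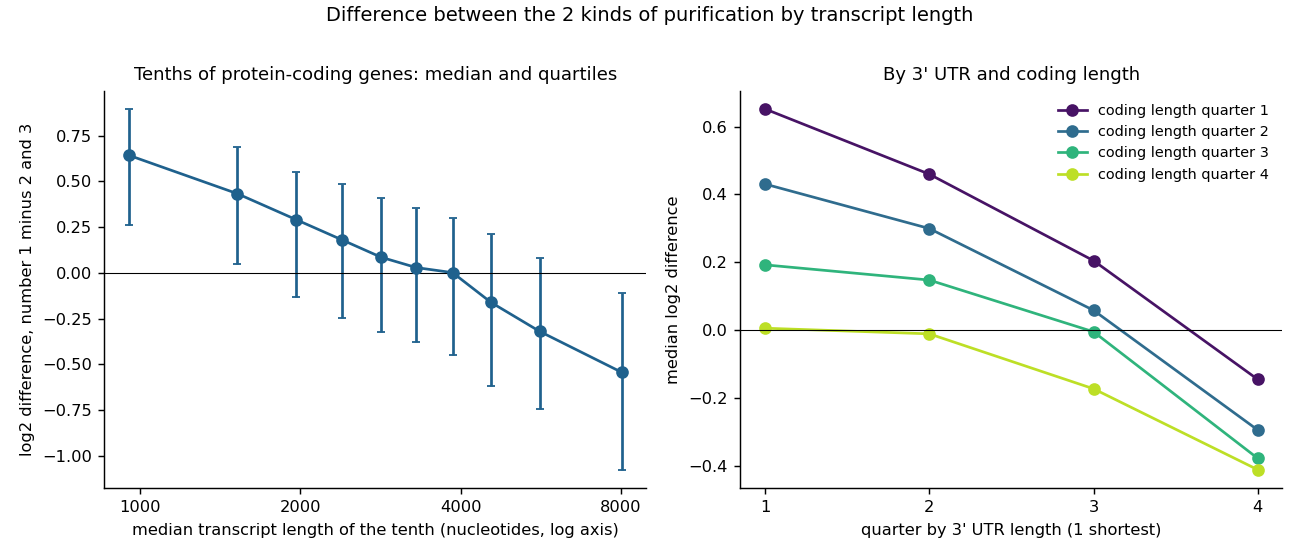
Left, median and quartiles of the log2 difference for 10 equal bins of protein-coding genes by transcript length, plotted at the median length of each bin on a log axis. Right, the median difference for 4 equal bins by 3′ UTR length, with 1 line for each of 4 equal bins by coding length; the medians fall from 0.65 for genes short in both to −0.41 for genes long in both.

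Length of the 3′ UTR and of the coding sequence each went with the difference at a like value of the other. Genes were split into 4 equal bins by each length. Among genes in the shortest bin by coding length, the median difference went from 0.65 in the shortest bin by 3′ UTR to −0.14 in the longest. Among genes in the longest bin by coding length, it went from 0.01 to −0.41. Pou2f1, Zbtb37 and Zfp704 have 3′ UTRs of 10587, 17002 and 11770 nucleotides, whereas that of Uqcr10 has 206. Ahnak is long in its coding sequence, at 16968 nucleotides, and Ubr3, the highest named gene, has a transcript of 8081 nucleotides. After the smooth trend with exonic length was removed, the medians of complex I (0.51), complexes II to V (0.62), cytosolic ribosomal proteins (0.38) and histones (0.19) were smaller, as were those of mitochondrial ribosomal proteins (0.47), tubulins (0.49), RNA polymerase II (0.34) and neuropeptides (0.10). The postsynaptic median changed sign, from −0.13 to 0.08. Those of layer 5 (0.87), astrocyte (−0.88), oligodendrocyte (−1.19) and nuclear noncoding RNA lists (−2.43) kept at least 0.8 of log2 in size. The median of chromatin-modifying enzymes went from −0.50 to −0.17.

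The libraries numbered 2 and 3 lay close to the input. Over 13521 genes that averaged 1 CPM or more, the number at least 2-fold above or below the input was 1931 in saline replicate 1, 3735 in cocaine replicate 1 and 1378 in yoked replicate 1. In the other 6 IP libraries it was 8 to 214 genes, lowest in cocaine replicate 2 and highest in cocaine replicate 3. The cocaine unbound library differed from the saline input in 1174 genes, a comparison that also crosses treatments. For 441 of the 448 genes set apart higher and 2028 of the 2065 set apart lower, the mean of the 6 libraries was within 2-fold of the input. With 1 input and 1 unbound library, both on lanes of their own, these ratios have no replicate check.

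**Figure D4:**
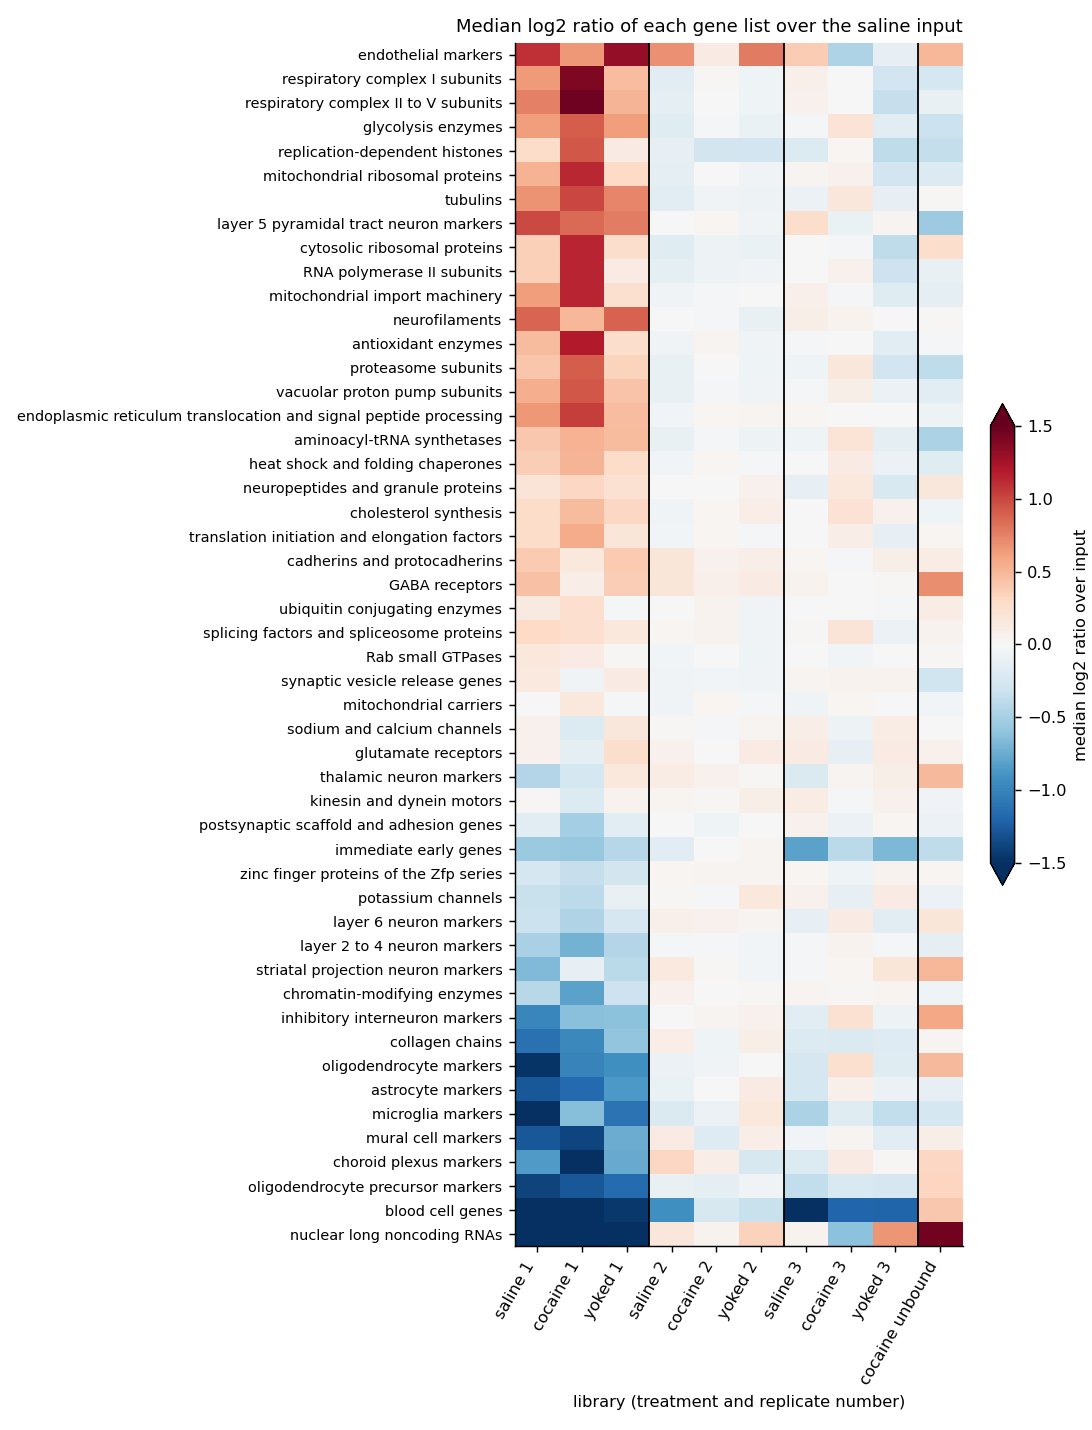
Median log2 ratio over the saline input of each of the 50 gene lists (rows) in each IP library and in the unbound library (columns, grouped by replicate number); colours saturate at 1.5 in size. In 36 lists the 3 columns of number 1 lie outside the range of the other 6 IP libraries; blood cell genes, at −1.52 in saline replicate 3, and nuclear noncoding RNAs, at 1.44 in the unbound library, are strongly coloured elsewhere too. Layer 5 markers lie at 0.77 to 0.995 there and at −0.10 to 0.27 in the other 6 IP libraries.

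In 36 of the 50 lists, the medians over the input of the 3 libraries numbered 1 lay outside the range of the other 6. In the other 14 they overlapped, among them the endothelial, thalamic, blood cell and immediate early gene lists and the 4 lists of receptors and channels. Astrocyte markers had medians over the input of −1.27, −1.17 and −0.86 in the saline, cocaine and yoked libraries numbered 1, and of −0.26 to 0.12 in the other 6. Oligodendrocyte markers were at −1.47, −1.01 and −0.92 in number 1 and at −0.26 to 0.23 in the others. Complex I subunits were at 0.64, 1.40 and 0.46, and at −0.29 to 0.08. Nuclear noncoding RNAs were at −2.58, −3.37 and −2.45, and at −0.61 in cocaine replicate 3 to 0.66 in yoked replicate 3. Endothelial markers overlapped, at 0.65 to 1.32 in number 1 and at −0.46 to 0.77 in the others. In the unbound library, layer 5 markers were at −0.54, oligodendrocyte markers at 0.48 and nuclear noncoding RNAs at 1.44. Astrocyte markers were at −0.13 there and endothelial markers at 0.50. The genes set apart lower had a median over the input of −0.30 in the unbound library, and those set apart higher −0.09. The unbound library was thus not a mirror image of the libraries numbered 1.

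The size of the difference by number was then compared between treatments, a contrast the choice of the split did not use. In edgeR's quasi-likelihood test of the interaction with Benjamini-Hochberg adjustment, 252 of 16417 genes (1.53%) passed the threshold of 0.05. The difference was largest in cocaine for 240 of them, and it had the same sign in all 3 treatments for 227. Each treatment holds a single library numbered 1, so the test takes the spread of that library from the pairs numbered 2 and 3. Without cocaine replicate 1 the test called 0 genes, with 703 at an unadjusted p under 0.05. Leaving it out removes the cocaine contrast itself, so the loss of calls largest in cocaine follows from the design, and 1 library carries them. It also held the highest share of reads aligned to several places (47.0%). Its share of the ribosomal precursor Rn45s was 8.001% of gene counts, against 4.09% to 6.60% in the other 8 IP libraries. With the Rn45s entry left out of the counts, the test called 253 genes. Any further part of these shares in the result was not tested. The count was 139 without saline replicate 3, 118 without cocaine replicate 3 and 135 without yoked replicate 1.

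The 242 protein-coding genes called had a median transcript length of 1194 nucleotides, against 3056 for all tested. Uqcr10 differed by 0.81 in saline, 2.41 in cocaine and 0.83 in yoked (adjusted p = 0.00348, edgeR), and Timm13 by 0.73, 2.12 and 0.54 (adjusted p = 0.00348, edgeR). Rpl41 differed by 0.90, 2.34 and 0.81 (adjusted p = 0.0092, edgeR). Among the lists, 13 of 37 complex I subunits, 11 of 44 subunits of complexes II to V, 13 of 76 mitochondrial and 9 of 81 cytosolic ribosomal proteins passed, which makes 46 of the 252 calls. Chromatin-modifying enzymes had 6 of 83. The layer 5, astrocyte, oligodendrocyte and nuclear noncoding RNA lists had 0, and lists this short hold few calls at the share of all genes. The layer 5 median was 0.85 in saline, 0.91 in cocaine and 0.78 in yoked, whereas the complex I median was 0.71, 1.37 and 0.62. Ubr3 was lowest in cocaine, at 3.04, 2.29 and 2.83, which did not pass (adjusted p = 0.12, edgeR).

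**Figure D5:**
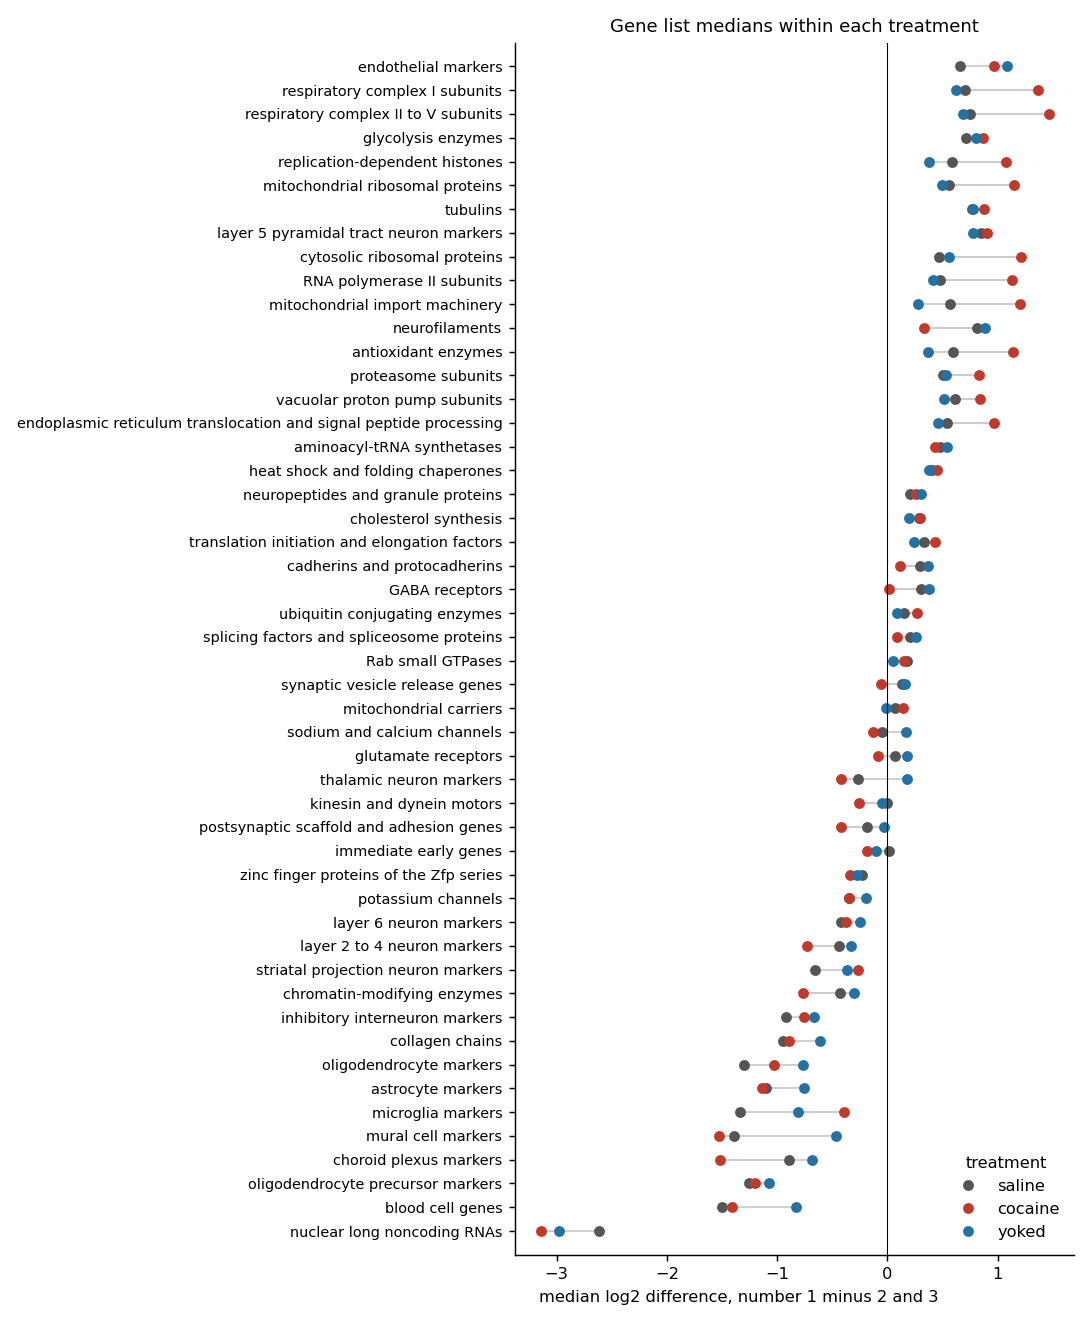
Median log2 difference of each gene list within each treatment, number 1 minus the mean of numbers 2 and 3, with 1 point per treatment. For complex I, complexes II to V and the ribosomal lists the cocaine point lies apart at 1.15 to 1.47, with saline and yoked at 0.47 to 0.75.

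The 6 other libraries were compared with each other in the same way. Between number 3 and number 2, edgeR's quasi-likelihood test called 0 of 16417 genes (0%), with 320 at an unadjusted p under 0.05 and a lowest adjusted p of 0.0696, for Arc. The count was 7 without cocaine replicate 1 and 3 without cocaine replicate 3. DESeq2 called 8 genes, all lower in number 3. They were Arc, Btg2, Egr2, Fos, Junb, Npas4, Rsrp1 and Yeats2, named here after their values were seen. Arc, Egr2, Fos, Junb, Npas4 and Btg2 are immediate early genes, which neurons switch on within minutes of activity. Arc stood at 55.3, 72.5 and 92.7 CPM in number 2 of saline, cocaine and yoked, and at 30.1, 46.6 and 39.7 CPM in number 3. All 16 immediate early genes of the list had a difference below 0, with a median of −0.58. So did all 10 endothelial markers, also with a median of −0.58, and 11 of 12 microglia markers (median −0.29). The 4 blood cell genes had a median of −0.89. Other lists leaned the same way by smaller amounts. Layer 6 markers and nuclear noncoding RNAs each had 9 of 10 below 0 (medians −0.11 and −0.21), and oligodendrocyte precursor markers 7 of 8 (−0.17). By contrast, layer 5 markers had 4 of 14 below 0 and glycolysis enzymes 1 of 16. The share of all genes below 0 is not given here. Between number 1 and the other 2 numbers, the immediate early gene list had 0 of 16 set apart. Its median was −0.16, but −0.44 against number 2 alone, 0.25 against number 3 alone and 0.06 without yoked replicate 2. The members ran from Fosl2 at −0.99 ± 0.11 to Dusp1 at 0.70 ± 0.17.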

How the data were processed

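The authors deposited raw read counts per gene symbol, 1 file per library, for 9 IP, 1 input and 1 unbound library. The submitters' processing notes name STAR 2.0.0e, HTSeq and genome build mm10. Annotation, strand setting and HTSeq version: not given in the sources used here. Special entries (reads without a gene, over several genes or aligned to several places, and a row named unknown) stayed out of library sizes. The members and the gene lists were chosen with earlier results of these data known.

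The 9 IP libraries were fitted in edgeR 4.0.16 (R 4.3.3) with TMM, filterByExpr and robust quasi-likelihood dispersion, after the scripts had been tested on simulated data. Differences by treatment and ratios over the input used log2 CPM with a prior count of 2. Gene features came from GENCODE M21. Alternatives included DESeq2 1.42.0. The genes named were the 4 that chose the split, the 10 highest and 10 lowest set apart genes that have a standard symbol and 30 CPM or more in 1 of the kinds, and in each list the member with the largest difference each way and the most abundant member. Some of these are not reported here. Nothing says that libraries of a group come from separate animals, so p-values measure only the spread between these libraries. Depth was 20926712 to 53862653 gene counts, and counts without molecular identifiers include PCR copies.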

Additional observations from a re-analysis of the deposited data

Results flagged for a closer look

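The difference by replicate number varied with treatment in 252 genes (edgeR's quasi-likelihood test of the interaction). Among the genes named, these were Uqcr10 and Timm13 (adjusted p = 0.00348 each), Ndufa2 and Atp6v0b (0.0079 each), Rpl41 and Bola2 (0.0092 each), Pigyl (0.0221), Polr2f (0.0249), Mrps12 (0.0277), Hist1h4d (0.0292), Cck (0.0439) and Snrpd2 (0.0443). In all of these the difference was largest in cocaine, and the test called 0 genes without cocaine replicate 1, which takes the cocaine contrast out of it.

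Among the 6 libraries numbered 2 or 3, single libraries stood apart by Dixon's criterion for 13 of the 154 genes named. Chance alone flags about 1 in 20 such groups, and the genes are not independent. Saline replicate 3 was high for Fezf2 (82.4 CPM) and Lamp5 (172 CPM). Saline replicate 2 was high for Ttr (21.1 CPM) and Cdh1 (1.76 CPM). Cocaine replicate 3 was high for Nars (358 CPM), Hsp90ab1 (2036 CPM) and Hmgcs1 (240 CPM). It was low for Adcyap1 (13.5 CPM), Ipw (28.2 CPM), Ahnak (19.4 CPM), Zfp704 (253 CPM) and Cux1 (170 CPM). Yoked replicate 3 was high for Rab31 (101 CPM).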

How the results depend on the processing

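No paired analysis was possible because the replicate number, which would form the pairs, is itself the contrast. The count set apart higher was 289 where only genes averaging 1 CPM or more were kept, 2161 at 1.5-fold and 18 at 4-fold, and 244 to 846 with 1 library left out. The count set apart lower was 3116 at 1.5-fold and 816 at 4-fold. Between numbers 3 and 2, 8 genes were called with no filter on low counts, 8 by DESeq2, and 0 to 7 with 1 library left out. The interaction was called in 167 genes with total gene counts as the only scaling, 907 with no filter, 722 by DESeq2 over 10051 genes, and 0 to 374 with 1 library left out. The cause of these shifts was not tested. Number 1 against number 2 alone gave 485 higher and 2293 lower, and against number 3 alone 481 and 1899. Over the alternatives run, 814 list medians stayed within 1 SD and 36 moved by more, and 6 lists with medians near 0 changed sign in at least 1 alternative. Low counts limit the endothelial, mural and blood lists.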
